A study of Rattus norvegicus with 4 samples.

Results

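The genes described here encode the nuclear subunits of the mitochondrial respiratory chain and ATP synthase, with a few of their assembly factors, in rat mammary gland. A gene belonged to the set when its single symbol in the platform annotation began with Nduf, Sdha, Sdhb, Sdhc, Sdhd, Uqcr or Atp5, or with Cox followed by a digit of 4 to 8. This gave 90 genes of 14217 with a single symbol on the array. There were 34 genes of complex I, 4 of complex II, 7 of complex III, 19 of complex IV, 16 of complex V and 10 assembly factors whose names begin with Ndufaf or Sdhaf. Ndufa4 and its paralog Ndufa4l2 were counted with complex IV. The complex IV group also holds Cox6c-ps1, which the annotation names as a pseudogene, and the complex V group holds Atp5if1, an inhibitor of the enzyme rather than a subunit.

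The study ran 4 Affymetrix arrays of whole mammary gland RNA, with 1 array in a group. The groups were homozygous Hirosaki hairless rats (HHR) on day 1 of lactation, heterozygous HHR on day 1 of lactation, Sprague-Dawley rats (SDR) on day 1 of involution, and SDR on day 1 of lactation. HHR is a hairless mutant strain, and involution is the regression of the gland once milk removal stops. How many animals stand behind an array, whether they were pooled, and how long lactation lasted before involution is not known here. Without replicates no spread could be measured and no test was run, so every difference is given by its size alone.

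The respiratory chain passes electrons from NADH (complex I) and succinate (complex II) through coenzyme Q, complex III and cytochrome c to oxygen at complex IV. Complexes I, III and IV pump protons across the inner mitochondrial membrane, and ATP synthase (complex V) uses the gradient to make ATP. Each complex other than complex II combines subunits from nuclear genes with subunits from mitochondrial DNA, and only nuclear genes are in this set. Secretory cells of the lactating gland spend much ATP on making milk protein, lactose and fat and are rich in mitochondria.

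Values are MAS5 signals, which have no unit and are scaled to the same trimmed mean in every array. A floor of 91.7, which is percentile 40 of the signals of all arrays, replaced lower signals before log2 differences were taken, and a gene counted as measured in a pair when at least 1 of its arrays lay above the floor. Of the 90 members 86 lay above the floor in at least 1 array and 83 in all 4. The 4 below it in every array were Cox6a2, Cox7a1, Cox7b2 and Cox8b. The members were bright, and the median member above the floor stood at percentile 94.5 of all genes above it by mean signal. The median signal over members was 3142 in SDR involution, 4334 in homozygous HHR, 4990 in heterozygous HHR and 4648 in SDR lactation.

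The arrays differed in their controls. The 18 probe sets of the bacterial and phage controls normally added at hybridisation (bioB, bioC, bioD and cre) had a median log2 difference from SDR lactation of -0.15 in homozygous HHR, -0.01 in heterozygous HHR and -0.51 in SDR involution. The 24 probe sets of the poly-A controls normally added to the RNA (dap, lys, phe and thr) had medians of 0.26 in homozygous HHR, 0.41 in heterozygous HHR and 0.32 in SDR involution. The Gapdh probe sets at the 3′ and 5′ ends, whose ratio grows as RNA degrades, stood in a ratio of 2.30 in homozygous HHR, 1.93 in heterozygous HHR, 1.60 in SDR involution and 1.17 in SDR lactation. The beta-actin ratio, which has the same use, was 5.91 in homozygous HHR, 7.87 in heterozygous HHR, 4.80 in SDR involution and 4.6 in SDR lactation. The controls thus put different HHR arrays highest, but both put SDR lactation lowest and SDR involution next. The part of RNA quality in the differences from SDR lactation was not tested. Because the total scale of an array is thus uncertain, medians of the members are given beside the median of all genes, while counts and the folds of single genes are at the deposited scale unless another is named. All 9 luminal secretory markers were above the floor in all 4 arrays, with the milk protein gene Csn2 at 43743 to 55859.

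Involution against lactation in SDR was the comparison in which the members stood furthest from the other genes. Most subunits of each of the 5 complexes had a lower signal in the involuting gland at the deposited scale, while the assembly factors did not, and under scaling to the hybridisation controls 42 of the 76 measured subunits lay below 0. The median log2 difference of the 86 measured members was -0.48, against 0.08 for all 11006 measured genes, and 69 members lay below 0, where 45.7% of all genes did. At least 1.5-fold lower were 36 members (41.9%, against 18% of all genes) and at least 1.5-fold higher were 2 (against 23.5%). At least 2-fold lower were 13 members (15.1%, against 8.94% of all genes), and 1, the assembly factor Sdhaf2, was at least 2-fold higher (against 10.3%). In a whole gland, fewer cells of a type and less RNA per cell cannot be told apart.

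The size of this shift depended on how the arrays were scaled. Scaled to the hybridisation controls, the member median was 0.01 and that of all genes 0.55, and scaled to the poly-A controls the member median was -0.80. Under the hybridisation scaling complex V had a median of 0.18 and complexes I to IV medians of -0.23 to -0.03, and the assembly factors were at 0.71. The gap between the member median and that of all genes was -0.55 as deposited and ran from -0.58 to -0.33 over all settings tried. The smallest gaps came from the settings that remove brightness-dependent differences, -0.33 after quantile normalization and -0.35 after intensity-dependent centring. In both, 7 members (8.14%) were at least 2-fold lower, against 9.54% and 9.95% of all genes, so the 2-fold count was then no larger than the background. The 1.5-fold count was 29 and 30 members (33.7% and 34.9%), against 19.8% and 20.5% of all genes.

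**Figure D1:**
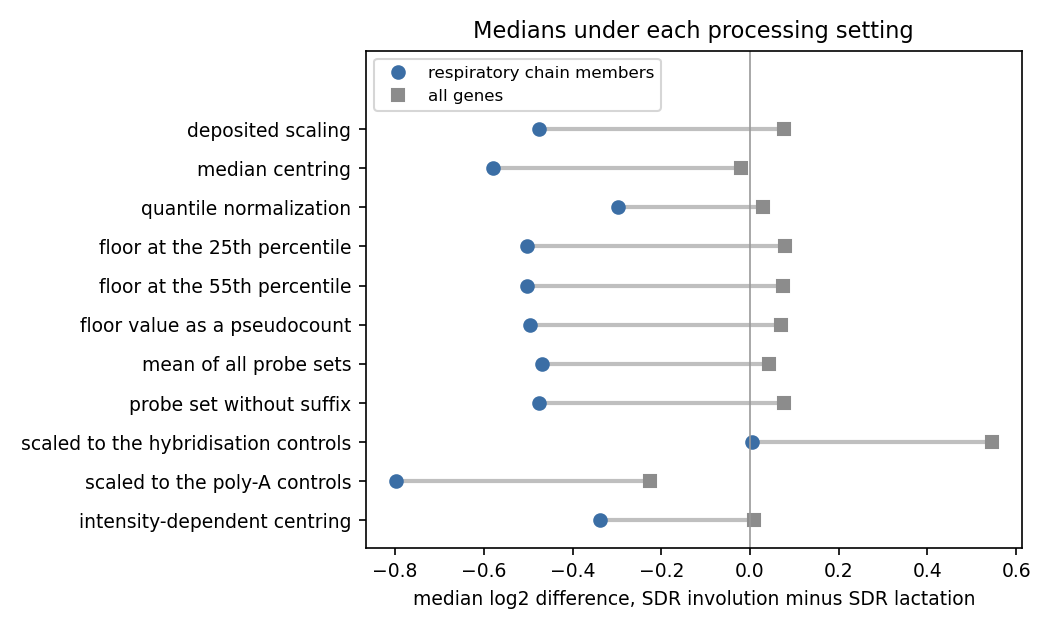
Median log2 difference (SDR involution minus SDR lactation, horizontal axis) of the respiratory chain members (circles) and of all measured genes (squares) under 11 processing settings, one per row, joined by grey lines. The circle lies left of the square in every row, with a gap of -0.58 to -0.33, while scaling to the hybridisation controls puts the circle at 0.01.

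The involution array was also the lowest of the 4 for most members. It lay below all 3 lactation arrays for 63 of the 86 members (73.3%), against 27.4% of all genes, although with scaling to the hybridisation controls this held for 33. The lactation arrays themselves lay close together, with a median range of 0.30 log2 over members against 0.50 over all genes, and 78 members (90.7%, against 58.2% of all genes) stayed within 1.5-fold across the 3. The members are brighter than most genes, and genes of like brightness were not compared. For the dimmer assembly factors the median range was 0.45 log2. At the deposited scale the gap from the lowest lactation array down to involution exceeded the whole range of the lactation arrays for 41 members (47.7%). This held for 11.9% of all genes and for 6 of 11 citric acid cycle enzymes (54.5%). For 22 members (25.6%) that gap was at least 1.5-fold, against 9.11% of all genes and 4 of the 11 enzymes (36.4%). Neither count was taken under other scalings. These 3 lactation arrays are of different genotypes and are not replicates of SDR lactation.

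**Figure D2:**
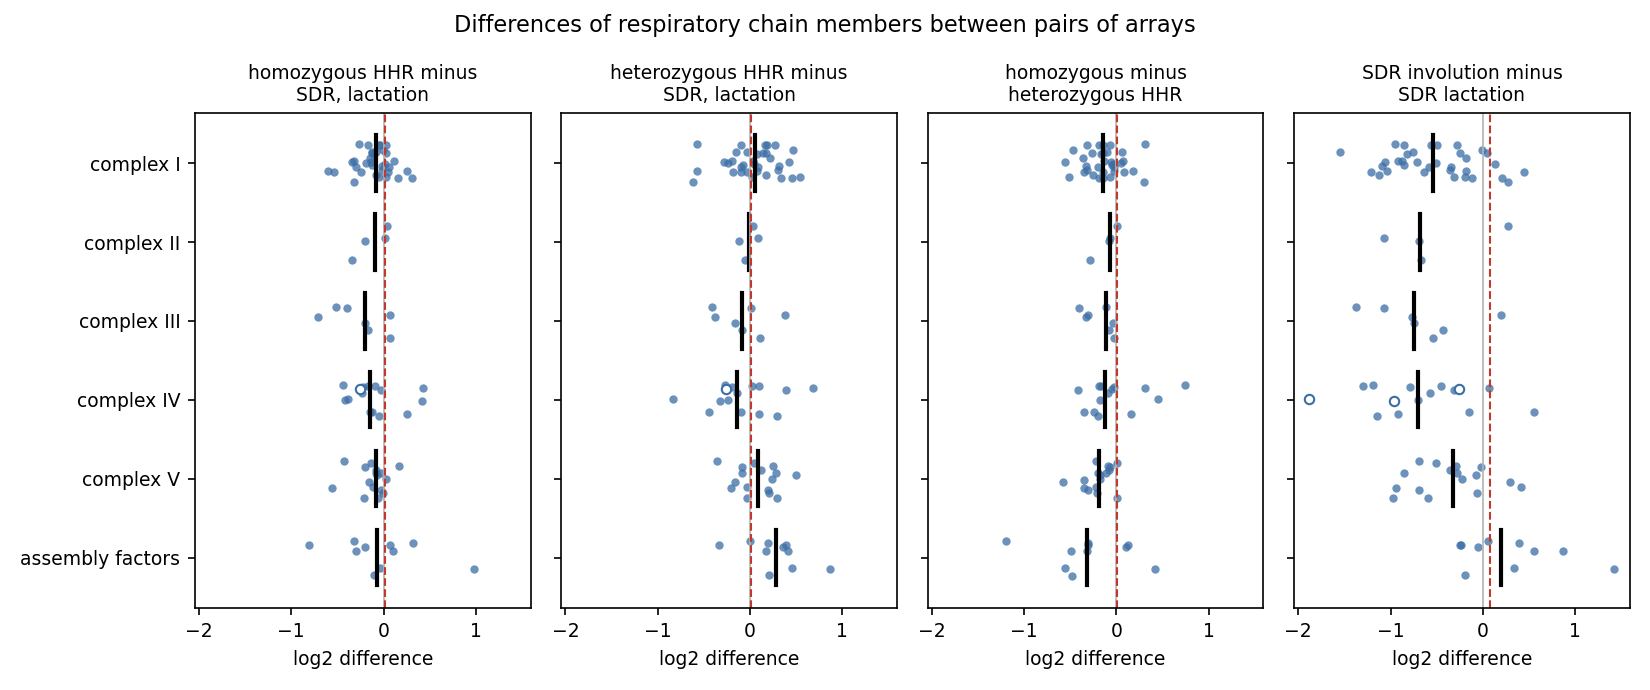
Log2 difference (horizontal axis) of every member measured in a pair, by complex (rows), for 4 pairs of arrays (panels). Filled points have both arrays above the floor, open points are bounds with 1 array at the floor, black bars are group medians and the dashed line is the median of all genes. In the involution panel the medians of complexes I to V lie between -0.74 and -0.33 and that of the assembly factors at 0.20 at the deposited scale, which for complex V turns to 0.18 when scaled to the hybridisation controls.

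In complex I, which takes electrons from NADH, the median in involution was -0.54. At least 1.5-fold lower were 15 of 34 members (44.1%, against 18% of all genes), and 0 were as much higher (against 23.5%). Ndufv3, a small accessory subunit of the NADH-binding module, had a signal of 2166 in SDR involution, against 5965 in homozygous HHR, 5715 in heterozygous HHR and 6334 in SDR lactation. The 3 lactation arrays were close and involution was 2.92-fold below SDR lactation. A second probe set of Ndufv3 went the same way at lower brightness, with 243 in involution and 366 in SDR lactation.

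Among the accessory subunits of the membrane arm, Ndufb8 had 291 in SDR involution, 464 in homozygous HHR, 593 in heterozygous HHR and 675 in SDR lactation, a 2.32-fold lower signal in involution than in SDR lactation. Ndufb5 had 3899 in involution, 8048 in homozygous HHR, 9580 in heterozygous HHR and 8522 in SDR lactation. Ndufa3 had 2872 in involution, 6051 in homozygous HHR, 7604 in heterozygous HHR and 6110 in SDR lactation. Both were more than 2-fold below each lactation array. Ndufb11 had 3147 in involution and 6471 in SDR lactation, but 4264 in homozygous HHR and 4341 in heterozygous HHR, so the SDR lactation array stood apart for this gene.

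The core subunits of complex I outside the membrane, most of which carry iron-sulfur clusters, differed among themselves. Ndufs8 was 2.08-fold lower in involution than in SDR lactation (1828 in involution, 3809 in SDR lactation), Ndufs3 1.83-fold (1825 in involution, 3345 in SDR lactation), Ndufs1 1.76-fold (1528 in involution, 2690 in SDR lactation) and Ndufs7 1.48-fold (2776 in involution, 4105 in SDR lactation). Ndufv1, which binds NADH and the flavin, went the other way, with 2710 in involution against 2340 in SDR lactation, although homozygous HHR at 2893 and heterozygous HHR at 3200 were higher still. Ndufv2, its partner in the same module, had 3964 in involution and 4511 in SDR lactation. Ndufs4, an accessory subunit whose loss causes complex I deficiency in mice and humans, had 1049 in involution, 796 in homozygous HHR, 751 in heterozygous HHR and 771 in SDR lactation. Its involution signal was the highest of the 4. Ndufa1, the brightest member of the complex, had 15034 in involution and 21382 in SDR lactation.

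Complex II, succinate dehydrogenase, also works in the citric acid cycle and has 4 subunits, all on the array. Sdha, the flavoprotein that oxidises succinate, had 2666 in SDR involution, against 5645 in homozygous HHR, 5908 in heterozygous HHR and 5580 in SDR lactation, and was 2.09-fold lower than in SDR lactation. Sdhb, the iron-sulfur subunit that sits beside it, had 6614 in involution, 5611 in homozygous HHR, 5586 in heterozygous HHR and 5459 in SDR lactation. It was 1.21-fold higher than in SDR lactation, and the 3 lactation arrays were within a narrow range for both genes. The membrane anchors Sdhc (3972 in involution, 6300 in SDR lactation) and Sdhd (3397 in involution, 5474 in SDR lactation) were 1.59-fold and 1.61-fold lower in involution than in SDR lactation. A second Sdhd probe set was 1.56-fold lower (1494 in involution, 2327 in SDR lactation).

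In complex III, which passes electrons from coenzyme Q to cytochrome c, the median in involution was -0.74. At least 1.5-fold lower were 4 of 7 members (57.1%, against 18% of all genes). Uqcrc2, a core protein, had 4674 in SDR involution, 8441 in homozygous HHR, 9118 in heterozygous HHR and 12103 in SDR lactation, 2.59-fold below SDR lactation. A second probe set of Uqcrc2 had 1164 in involution and 6677 in SDR lactation, with both HHR arrays close to involution at 1352 in homozygous HHR and 1377 in heterozygous HHR. The partner of Uqcrc2 in the core, Uqcrc1, had 6648 in involution, 6085 in homozygous HHR, 7507 in heterozygous HHR and 5793 in SDR lactation, so involution lay inside the range of the lactation arrays. Uqcrq, a small subunit, had 3953 in involution, 6325 in homozygous HHR, 8402 in heterozygous HHR and 8324 in SDR lactation, and was 2.11-fold lower in involution than in SDR lactation. Uqcrfs1, the Rieske iron-sulfur protein, had 4688 in involution and 7978 in SDR lactation, but the homozygous HHR array, at 4879, was close to involution. Uqcr10, the brightest member, had 7317 in involution and 12241 in SDR lactation.

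In complex IV, cytochrome c oxidase, the median in involution was -0.71. At least 1.5-fold lower were 8 of 15 measured members (53.3%, against 18% of all genes). Cox8a had 6560 in SDR involution, against 15137 in homozygous HHR, 17215 in heterozygous HHR and 16120 in SDR lactation. Cox7b, the brightest member, had 8255 in involution, 17558 in homozygous HHR, 22342 in heterozygous HHR and 18241 in SDR lactation. In both genes involution was more than 2-fold below each lactation array. Ndufa4, first described with complex I and now assigned to complex IV, was 2.29-fold lower in involution (6297) than in SDR lactation (14399). Cox4i1 was 1.63-fold lower (11995 in involution, 19564 in SDR lactation), Cox6a1 1.73-fold (6076 in involution, 10520 in SDR lactation), Cox6b1 1.48-fold (7285 in involution, 10801 in SDR lactation) and Cox5b 1.89-fold (2370 in involution, 4487 in SDR lactation), and Cox5a had 704 in involution and 876 in SDR lactation by the probe set that carries its symbol alone. Cox7a2l, which helps join complexes III and IV into supercomplexes, ran the other way with 6591 in involution, 4121 in homozygous HHR, 3318 in heterozygous HHR and 4506 in SDR lactation.

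Several complex IV subunits have paralogs with restricted expression. Cox6a2, Cox7a1 and Cox8b, the isoforms of heart and skeletal muscle, were under the floor in all 4 arrays with signals of at most 29. Of 9 skeletal muscle markers Ckm, Mb, Myh4 and Actn3 were under the floor in all 4 arrays too, while Acta1 and Myh1 were above it in all 4. Myh2, Tnni2 and Tnnt3 were above it in SDR involution, at 177 for Myh2, 204 for Tnni2 and 121 for Tnnt3, and under it in SDR lactation, at 35 for Myh2, 81 for Tnni2 and 39 for Tnnt3. The list summed to 7641 in SDR involution, 9959 in homozygous HHR, 8501 in heterozygous HHR and 6568 in SDR lactation. Of 5 brown fat markers Ucp1, Dio2 and Elovl3 were under the floor in every array, and the summed list, 3260 in involution and 25728 to 33671 in the lactation arrays, was nearly all Cidea, which the lactating mammary epithelium of mice also expresses. Cox6b2, the testis isoform, was above the floor only in SDR lactation, at 110. Cox4i2, an isoform known from lung and induced by low oxygen in cultured cells, had 68 in SDR involution, which is under the floor, against 258 in homozygous HHR, 190 in heterozygous HHR and 337 in SDR lactation, so it was at least 3.68-fold lower in involution than in SDR lactation. Ndufa4l2, an Ndufa4 paralog also induced by low oxygen, had 89 in involution (under the floor), 237 in homozygous HHR, 142 in heterozygous HHR and 178 in SDR lactation, at least 1.94-fold lower than in SDR lactation. Both lie near the floor.

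In complex V, ATP synthase, 6 of 16 members were at least 1.5-fold lower in involution (37.5%, against 18% of all genes). The median of -0.33 was the smallest shift of the 5 complexes. Scaled to the hybridisation controls this median was 0.18. The genes of the catalytic head that were measured had lower signals at the deposited scale. The alpha subunit gene Atp5f1a had 6000 in SDR involution, 7803 in homozygous HHR, 9968 in heterozygous HHR and 11529 in SDR lactation, 1.92-fold below SDR lactation. The beta subunit gene Atp5f1b had 10620 in involution, 15417 in homozygous HHR, 19736 in heterozygous HHR and 16079 in SDR lactation, 1.51-fold below SDR lactation. For the gamma subunit gene Atp5f1c the signals were 8230 in involution, 14030 in homozygous HHR, 13966 in heterozygous HHR and 14865 in SDR lactation, and involution was 1.81-fold below SDR lactation. Atp5po, a subunit of the peripheral stalk, was 1.96-fold lower (3936 in involution, 7724 in SDR lactation), while Atp5pd of the same stalk had 8845 in involution and 7209 in SDR lactation. Atp5mc3, a gene of the proton-carrying c ring and the brightest of the group, was 1.62-fold lower (10756 in involution, 17414 in SDR lactation). Atp5if1, which inhibits ATP hydrolysis by the enzyme, had 4627 in involution, 3196 in homozygous HHR, 3399 in heterozygous HHR and 3473 in SDR lactation.

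**Figure D3:**
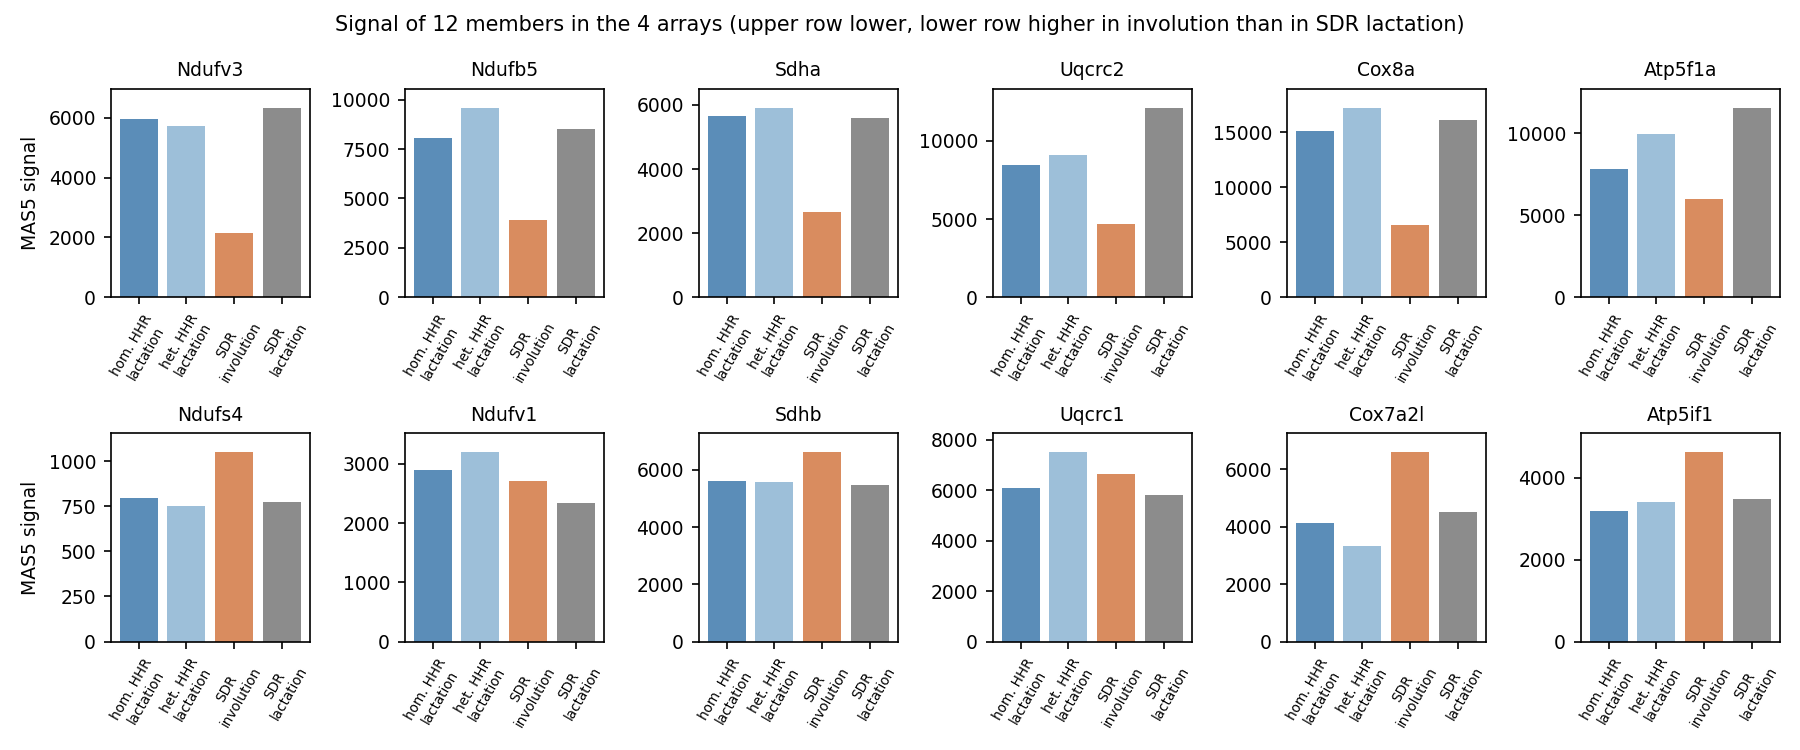
MAS5 signal (vertical axis, from 0, own scale in each panel) of 12 members in the 4 arrays, with 1 bar an array and no error since there are no replicates. The upper row shows members lower in SDR involution than in SDR lactation, such as Sdha at 2666 in involution and 5580 in SDR lactation, and the lower row members that were not, such as Sdhb at 6614 in involution and 5459 in SDR lactation.

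The 10 assembly factors, which help build complexes I and II but are not part of them, did not share the shift. Their median in involution was 0.20, and it turned to -0.12 when scaled to the poly-A controls. At the deposited scale 4 lay below 0 (40%, against 45.7% of all genes) and 0 were at least 1.5-fold lower (against 18%). Sdhaf2, which is needed to attach the flavin to Sdha, had 1221 in SDR involution, 894 in homozygous HHR, 832 in heterozygous HHR and 455 in SDR lactation, 2.69-fold higher in involution than in SDR lactation. The SDR lactation array was the low one by this probe set. A second Sdhaf2 probe set was above the floor in involution alone. It had 102 in involution, 49 in homozygous HHR, 18 in heterozygous HHR and 34 in SDR lactation. Ndufaf1 had 258 in involution, 114 in homozygous HHR, 159 in heterozygous HHR and 141 in SDR lactation, and was 1.83-fold higher than in SDR lactation. Ndufaf7 had 531 in involution and 362 in SDR lactation, but a second, dimmer probe set had 169 in involution and 161 in SDR lactation.

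The promoters of the subunits that were lowest in involution are shown because nuclear respiratory chain genes are known to share binding sites for NRF1, GABPA (also called NRF2) and YY1. Promoter sequences, 250 bases before to 50 bases after the annotated start, come from RefSeq on build GRCr8, and 82 of the 90 members had an entry. Motifs were searched on both strands as CGCANGCG for NRF1, CCGGAAG for GABPA and AAGATGGCG for YY1, with N any base. The GABPA letters end as those of YY1 begin, so matches of both can overlap, and the letters were chosen after the signals were seen. The member with the lowest involution signal relative to SDR lactation is given for each complex, among those above the floor in both arrays, followed by Uqcrc1 as the partner of Uqcrc2 that was not lower. Each runs 5′ to 3′ on the gene's strand, and capitals mark the motifs.
Ndufv3 (chr20:9613536-9613835, + strand): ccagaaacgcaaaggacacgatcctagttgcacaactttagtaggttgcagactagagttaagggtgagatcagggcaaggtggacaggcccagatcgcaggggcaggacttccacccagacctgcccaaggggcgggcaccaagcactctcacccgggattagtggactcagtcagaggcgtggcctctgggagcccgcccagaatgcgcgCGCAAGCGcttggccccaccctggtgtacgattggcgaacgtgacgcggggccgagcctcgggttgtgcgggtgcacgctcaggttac
Sdha (chr1:30764303-30764602, + strand): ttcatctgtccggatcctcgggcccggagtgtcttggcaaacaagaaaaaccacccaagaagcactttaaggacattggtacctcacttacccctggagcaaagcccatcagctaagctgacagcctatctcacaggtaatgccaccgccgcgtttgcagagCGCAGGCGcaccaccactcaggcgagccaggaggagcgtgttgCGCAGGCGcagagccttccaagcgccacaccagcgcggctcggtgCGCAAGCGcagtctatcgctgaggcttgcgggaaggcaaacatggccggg
Uqcrc2 (chr1:184598990-184599289, + strand): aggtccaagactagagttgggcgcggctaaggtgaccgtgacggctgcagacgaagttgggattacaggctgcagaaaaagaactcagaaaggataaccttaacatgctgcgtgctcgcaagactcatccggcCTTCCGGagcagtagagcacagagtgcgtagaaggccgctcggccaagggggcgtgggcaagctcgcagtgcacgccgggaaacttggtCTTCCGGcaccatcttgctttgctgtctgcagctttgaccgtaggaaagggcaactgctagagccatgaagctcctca
Cox8a (chr1:213833574-213833873, - strand): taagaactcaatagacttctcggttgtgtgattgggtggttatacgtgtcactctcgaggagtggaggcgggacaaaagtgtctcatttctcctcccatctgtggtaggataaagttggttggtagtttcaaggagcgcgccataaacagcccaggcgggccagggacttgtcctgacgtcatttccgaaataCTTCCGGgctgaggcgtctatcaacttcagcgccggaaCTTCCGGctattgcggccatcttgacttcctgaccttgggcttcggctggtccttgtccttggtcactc
Atp5po (chr11:44657434-44657733, - strand): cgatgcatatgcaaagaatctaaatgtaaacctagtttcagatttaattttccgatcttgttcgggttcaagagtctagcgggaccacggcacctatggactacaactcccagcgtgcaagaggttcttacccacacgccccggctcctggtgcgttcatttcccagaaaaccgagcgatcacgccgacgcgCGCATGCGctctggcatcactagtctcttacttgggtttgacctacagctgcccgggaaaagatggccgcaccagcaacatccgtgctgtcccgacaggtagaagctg
Uqcrc1 (chr8:118467973-118468272, + strand): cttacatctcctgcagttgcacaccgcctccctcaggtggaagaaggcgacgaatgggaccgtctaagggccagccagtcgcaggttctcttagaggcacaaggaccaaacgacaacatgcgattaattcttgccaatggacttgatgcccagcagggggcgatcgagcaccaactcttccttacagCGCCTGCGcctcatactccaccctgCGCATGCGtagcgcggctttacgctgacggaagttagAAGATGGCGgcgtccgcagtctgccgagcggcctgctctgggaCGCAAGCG
Of the 5 lower members Ndufv3, Sdha and Atp5po carried the NRF1 letters and Uqcrc2 and Cox8a the GABPA letters, while Uqcrc1 carried those of NRF1 and YY1. Over all members with an entry 27 (32.9%) held the NRF1 letters, 25 (30.5%) those of GABPA and 11 (13.4%) those of YY1. Among promoters of genes above the floor in at least 1 array the shares were 16.6%, 17.6% and 3.72%. Among all 27457 promoters on file they were 8.23%, 9.22% and 1.93%. These are matches of letters and say nothing of binding.

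Other mitochondrial gene groups were set beside the members. Of 11 citric acid cycle enzymes 5 were at least 1.5-fold lower in involution (against 18% of all genes) and 2 higher (against 23.5%), and the median was -0.43 (0.08 when scaled to the hybridisation controls). Cs, citrate synthase, had 2496 in SDR involution, 6513 in homozygous HHR, 9673 in heterozygous HHR and 10232 in SDR lactation, 4.10-fold below SDR lactation. Idh3g, a subunit of the NAD-dependent isocitrate dehydrogenase, was 3.09-fold lower (2330 in involution, 7202 in SDR lactation), whereas Dlst, of the 2-oxoglutarate dehydrogenase complex, was 1.85-fold higher (1658 in involution, 897 in SDR lactation). Of 73 mitochondrial ribosomal protein genes, which serve translation inside mitochondria, 15 were higher by at least 1.5-fold, close to the share of all genes. As much lower were 6 (8.22%, against 18% of all genes). The median of the 73 was 0.03, against -0.29 when scaled to the poly-A controls. Mrpl50 was 2.15-fold lower (749 in involution, 1610 in SDR lactation) and Mrps18a 2.16-fold higher (2346 in involution, 1085 in SDR lactation).

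Import genes, mostly of the Timm and Tomm families, had a median of 0.13 (-0.22 when scaled to the poly-A controls). Among 21 of them 5 were higher by at least 1.5-fold, again close to the share of all genes that were higher. Only 1 was as much lower (4.76%, against 18% of all genes). Tomm40, the pore of the outer membrane, was 3.05-fold higher (1535 in involution, 503 in SDR lactation) and Timm50 2.34-fold higher (1267 in involution, 541 in SDR lactation). Cytochrome c1 (Cyc1) and assembly genes outside the set had a median of 0.01 (-0.31 when scaled to the poly-A controls). By at least 1.5-fold 3 of 33 were lower (9.09%, against 18% of all genes) and 7 higher (against 23.5%). Cyc1, a subunit of complex III, was 1.81-fold lower (4212 in involution, 7642 in SDR lactation) and the complex IV assembly factor Coa3 1.90-fold higher (1988 in involution, 1049 in SDR lactation). Among 15 measured factors of mitochondrial biogenesis 3 were at least 1.5-fold lower, close to the share of all genes, and 2 higher (against 23.5% of all genes). Of the factors whose motifs are given above, Nrf1 was 3.54-fold lower (126 in involution, near the floor, and 446 in SDR lactation). Gabpa was 1.15-fold lower (718 in involution, 823 in SDR lactation) and Yy1 1.24-fold (2967 in involution, 3691 in SDR lactation). Whether these levels bear on the members was not tested. Pprc1, a coactivator of the same family as Ppargc1a, had 386 in involution and 773 in SDR lactation. Polg, the mitochondrial DNA polymerase, was 2.05-fold higher (1166 in involution, 568 in SDR lactation). Genes of mitochondrial DNA were not among the named genes of the array.

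**Figure D4:**
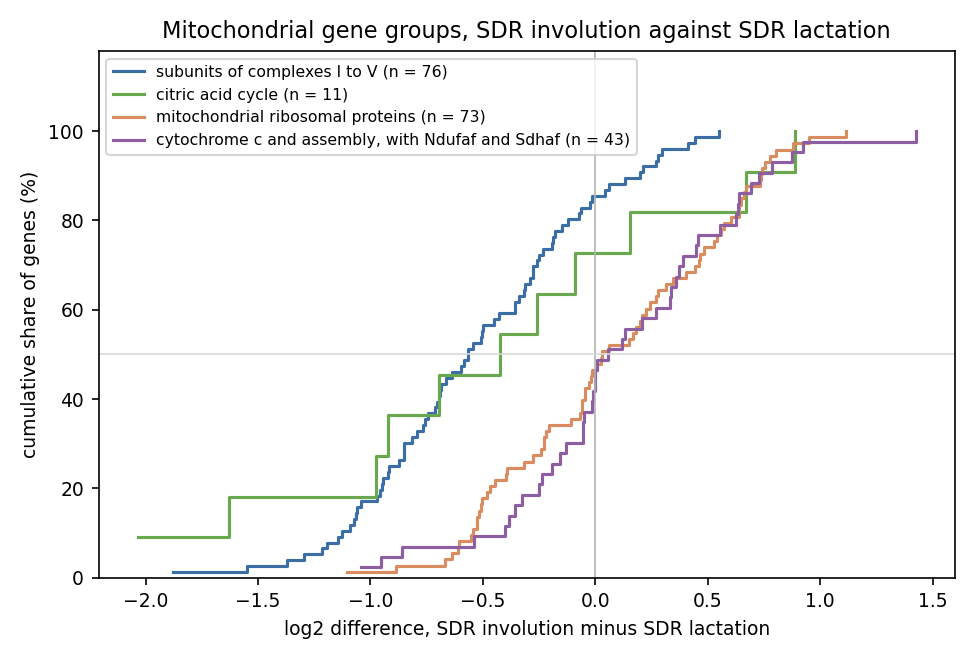
Cumulative share of genes (percent, vertical axis) against log2 difference, SDR involution minus SDR lactation (horizontal axis), for 4 groups of mitochondrial genes. The curve of the 76 measured subunits crosses 50% at -0.57, that of 73 mitochondrial ribosomal proteins at 0.03.

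Markers of cell types differed between these 2 arrays as well. All 5 measured white adipocyte markers were lower in involution, with a summed signal of the list of 8689 in SDR involution and 31121 in SDR lactation. Both measured red cell markers were lower (3568 summed in SDR involution and 15060 in SDR lactation). Myoepithelial markers summed to 17010 in SDR involution and 13048 in SDR lactation, with 4 of 5 measured higher and 1 at least 2-fold lower. Endothelial sums were 3838 in SDR involution and 6218 in SDR lactation, with 2 markers higher and 2 lower. Macrophage sums were 4284 in SDR involution and 4880 in SDR lactation, with 2 markers higher and 3 lower. Of the luminal list, Krt8, Krt18, Krt19 and Epcam were higher and the milk protein genes and Elf5, a transcription factor of secretory cells, were lower, with Elf5 at 3420 in SDR involution and 13668 in SDR lactation. Their part in the member values was not tested.

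The first of the lactation comparisons set homozygous HHR against SDR. The members differed little, and more of them lay on the lower side than among the genes at large. Of 86 measured members 63 lay below 0 (against 48.6% of all genes) and the median was -0.10, against 0.02 for all genes, but scaled to the hybridisation controls the median was 0.05 and 33 lay below 0. The gap to the median of all genes was -0.12 as deposited and -0.13 to -0.06 over all settings. At least 2-fold different were 0 members, against 2.72% of all genes lower and 3.77% higher. At least 1.5-fold lower were 3 members (against 9.98%) and 1 was higher (against 12.2%).

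The 3 lower members belonged to different parts of the chain. Uqcrfs1, described above, had 4879 in homozygous HHR and 7978 in SDR lactation, with heterozygous HHR between them at 6139, and was 1.64-fold lower. Ndufaf4, an assembly factor of complex I first described as a prolactin-inducible growth protein in rat lymphoma cells, had 660 in homozygous HHR, 1517 in heterozygous HHR and 1159 in SDR lactation, and was 1.76-fold lower than in SDR. Ndufb11 was 1.52-fold lower (4264 in homozygous HHR, 6471 in SDR) and had a like value in heterozygous HHR. Next in order were Atp5f1a, 1.48-fold lower (7803 in homozygous HHR, 11529 in SDR), Ndufb8, 1.45-fold lower (464 in homozygous HHR, 675 in SDR), and Uqcrc2, 1.43-fold lower (8441 in homozygous HHR, 12103 in SDR).

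Sdhaf2 was the 1 member higher in homozygous HHR by at least 1.5-fold, at 1.97-fold (894 in homozygous HHR, 455 in SDR). Cox6c-ps1 (154 in homozygous HHR, 115 in SDR) and Ndufa4l2 (237 in homozygous HHR, 178 in SDR) were 1.35-fold and 1.33-fold higher, both dim. Ndufaf5 was 1.25-fold higher (517 in homozygous HHR, 414 in SDR), Ndufv1 1.24-fold (2893 in homozygous HHR, 2340 in SDR) and Ndufa2 1.19-fold (3826 in homozygous HHR, 3202 in SDR). The medians by complex were -0.08 for complex I, -0.09 for complex II, -0.21 for complex III, -0.14 for complex IV, -0.08 for complex V and -0.07 for assembly factors, and under scaling to the hybridisation controls all but that of complex III, at -0.06, lay above 0. Of the 73 mitochondrial ribosomal protein genes 54 lay below 0 (74%, against 48.6% of all genes), with a median of -0.22 (-0.07 when scaled to the hybridisation controls). The 8 at least 1.5-fold lower (11%, against 9.98%) were close to the share of all genes. Summed myoepithelial markers stood at 23030 in homozygous HHR and 13048 in SDR, with 4 of 5 measured markers higher and 1 at least 2-fold lower. Lower sums were found for red cell markers (7211 in homozygous HHR, 15060 in SDR), endothelial markers (3996 in homozygous HHR, 6218 in SDR), and macrophage markers (3706 in homozygous HHR, 4880 in SDR). Singly, 2 of 2 red cell, 3 of 4 endothelial and 3 of 5 macrophage markers were lower, and 1 macrophage marker was at least 1.5-fold higher. The white adipocyte sum was lower through Fabp4 alone (21077 in homozygous HHR, 31121 in SDR), and the other 4 measured markers were higher. Their part in the member values was not tested.

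The next set heterozygous HHR against SDR. The members were centred near the other genes, with 49 of 86 above 0 (against 51% of all genes) and a median of 0.04, against 0.01. Scaling moved this small median to either side of 0, to -0.03 with median centring and -0.37 with the poly-A controls. At least 2-fold different were 0 members, against 4.58% of all genes higher and 4.14% lower, and at least 1.5-fold different were 2 higher (against 13.8%) and 2 lower (against 13%). The higher ones were Sdhaf2, 1.83-fold (832 in heterozygous HHR, 455 in SDR), and Cox6c-ps1, 1.60-fold (183 in heterozygous HHR, 115 in SDR). The lower ones were Cox4i2, 1.78-fold (190 in heterozygous HHR, 337 in SDR), and Ndufa8, a complex I subunit of the intermembrane space, 1.53-fold (1688 in heterozygous HHR, 2582 in SDR).

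Among smaller differences, Ndufc1 was 1.49-fold lower in heterozygous HHR (2428 in heterozygous HHR, 3626 in SDR), as was Ndufb11 (4341 in heterozygous HHR, 6471 in SDR), and Cox7a2l was 1.36-fold lower (3318 in heterozygous HHR, 4506 in SDR). Ndufa12 was 1.45-fold higher (4186 in heterozygous HHR, 2884 in SDR), the stalk subunit gene Atp5pf 1.41-fold (6550 in heterozygous HHR, 4637 in SDR), Ndufa5 1.38-fold (1049 in heterozygous HHR, 762 in SDR) and Ndufaf8 1.37-fold (716 in heterozygous HHR, 522 in SDR). Of the 10 assembly factors 9 lay above 0, with a median of 0.28, which turned to -0.13 when scaled to the poly-A controls. Summed myoepithelial markers were at 23778 in heterozygous HHR and 13048 in SDR, with 4 of 5 measured markers higher and 1 at least 2-fold lower. Lower sums were found for red cell markers (4763 in heterozygous HHR, 15060 in SDR), endothelial markers (3549 in heterozygous HHR, 6218 in SDR), and macrophage markers (2545 in heterozygous HHR, 4880 in SDR). Singly, 2 of 2 red cell, 4 of 4 endothelial and 4 of 5 macrophage markers were lower. The white adipocyte sum was again lower through Fabp4 alone (18831 in heterozygous HHR, 31121 in SDR), and the part of these markers in the member values was not tested. Both HHR comparisons and the involution comparison share the SDR lactation array, so its value for a gene enters each of them.

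Homozygous and heterozygous HHR, both on day 1 of lactation, were then compared without the SDR arrays, and the strain background of the heterozygous rats is not known here. Of 85 measured members 68 had a lower signal in homozygous HHR (against 49.8% of all genes) and 17 a higher one (against 50.2%). The median was -0.15, against 0.00. Scaled to either set of controls the median was -0.01 with 46 members below 0, and that of all genes 0.14, and the gap between the medians ran from -0.15 to -0.12 over all settings. All 7 members of complex III, 14 of 16 of complex V, 27 of 34 of complex I and 10 of 14 of complex IV lay below 0 at the deposited scale, while scaled to either set of controls the medians of complexes II, III and IV lay above 0. The single differences were small. At least 2-fold lower was 1 member (against 3.13% of all genes) and 0 were higher (against 3.76%), and at least 1.5-fold lower was 1 (against 11%) and 1 was higher (against 12.3%).

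The 2-fold member was Ndufaf4, 2.30-fold lower in homozygous than in heterozygous HHR (660 in homozygous HHR, 1517 in heterozygous HHR), and the higher one was Ndufa4l2, 1.67-fold (237 in homozygous HHR, 142 in heterozygous HHR). Atp5pf was 1.49-fold lower (4398 in homozygous HHR, 6550 in heterozygous HHR), Ndufab1, the mitochondrial acyl carrier protein, 1.47-fold (4255 in homozygous HHR, 6253 in heterozygous HHR), Sdhaf1 1.47-fold (1591 in homozygous HHR, 2334 in heterozygous HHR), Ndufa12 1.43-fold (2933 in homozygous HHR, 4186 in heterozygous HHR) and Ndufaf8 1.41-fold (508 in homozygous HHR, 716 in heterozygous HHR). Higher in homozygous HHR were Cox4i2, 1.36-fold (258 in homozygous HHR, 190 in heterozygous HHR), Sdhaf3, 1.33-fold (426 in homozygous HHR, 320 in heterozygous HHR), Cox7a2l, 1.24-fold (4121 in homozygous HHR, 3318 in heterozygous HHR), Ndufc1, 1.24-fold (3013 in homozygous HHR, 2428 in heterozygous HHR), and Ndufa8, 1.23-fold (2071 in homozygous HHR, 1688 in heterozygous HHR). Among the 3 lactation arrays homozygous HHR was the lowest for 54 of 86 members (62.8%, against 27.5% of all genes) and heterozygous HHR the highest for 43 (against 33.7%). The mitochondrial ribosomal proteins had 62 of 73 members below 0 in this pair, with a median of -0.31, and the citric acid cycle 9 of 11, with a median of -0.23. Scaled to either set of controls these medians were -0.17 and -0.09, with 51 of 73 and 7 of 11 below 0. In this pair 4 of 5 macrophage markers were higher in homozygous HHR (3706 summed in homozygous HHR, 2545 in heterozygous HHR). The luminal list was split, since 5 of its 9 markers, the milk protein genes and Elf5, lay below 0. Those above 0 were Krt8, Krt18, Krt19 and Epcam. Krt18 had 8524 in homozygous HHR and 4599 in heterozygous HHR, and Krt19 had 4064 in homozygous HHR and 2434 in heterozygous HHR. Epcam had 22380 in homozygous HHR and 15022 in heterozygous HHR. Summed red cell markers stood at 7211 in homozygous HHR and 4763 in heterozygous HHR, but of the 2 measured 1 was higher and 1 lower. The 3′ to 5′ ratio was higher in homozygous than in heterozygous HHR for Gapdh and lower for beta-actin. The part of these markers and ratios in the small member differences was not tested.

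Second probe sets bear on single members. Of 10 members with more than 1 probe set, 7 had a further one above the floor in at least 1 array. In involution against lactation 0 of these 7 went the opposite way to the brighter probe set. In homozygous HHR against SDR 3 did, those of Atp5if1, Ndufa7 and Ndufaf7, in heterozygous HHR against SDR the same number and in homozygous against heterozygous HHR 2. Atp5if1 had 3196 in homozygous HHR and 3473 in SDR lactation by 1 probe set, but 194 in homozygous HHR and 108 in SDR lactation by the dimmer one. These 3 genes have no settled direction in the comparisons in which their probe sets went opposite ways. The further probe set of Sdhaf2 was under the floor in every lactation array and near it in SDR involution, at 102. Between lactation arrays it could thus show no direction.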

How the data were processed

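The members and gene lists were chosen with earlier results of these data known. The deposited intensity values are MAS5 signals, one per probe set and not on a log scale, and the submitters' processing notes name MAS5 with no version. The authors' scaling shows in the values: trimmed by 2% at both ends, every array averaged 500.2. Detection calls were not used here. The arrays carried 31099 probe sets each, including 57 controls. Column names matched the sample labels, leaving 0 unmapped. All 90 member symbols were found in a RefSeq table of GRCr8, used for names.

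Low signals were set to 91.7, percentile 40, and each gene took the probe set with the highest mean log2 value. A gene was called different at 2-fold, or at 1.5-fold where stated, and a fold against an array at the floor is a lower bound. The number of arrays limits the precision. The alternatives tried were median centring, quantile normalization, floors at percentile 25 and 55, a pseudocount in place of the floor, averaging a gene's probe sets, leaving out probe sets with shared-probe suffixes, and a 1.5-fold threshold. Scaling to hybridisation or poly-A controls and lowess centring on intensity were added after seeing the data.

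Named members were the 6 largest differences each way per comparison among those above the floor in both arrays, any past 2-fold, the brightest of each complex, listed paralog isoforms, the catalytic cores, and those whose probe sets conflict. Up to 3 genes of each other list could be named per comparison. Atp5po, Atp5pd, Cox7b2, Gabpa, Yy1 and the cell type markers were named after their values were seen. The steps ran in Python 3.11.15 with pandas 2.3.3 and statsmodels 0.14.6 and were tested on simulated data.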

Additional observations from a re-analysis of the deposited data

How the results depend on the processing

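No paired analysis was possible because each group has 1 array. A median was taken as moved past 0.1 log2 and a count past 1.5 times. For homozygous HHR against SDR the median of -0.10 turned to 0.048 when scaled to the hybridisation controls, with 33 members below 0 and 1 at least 2-fold higher. It was -0.37 when scaled to the poly-A controls, with 1 at least 2-fold lower. The 0 members past 2-fold became 1 lower with the mean of all probe sets, and 3 lower and 1 higher at 1.5-fold. For heterozygous HHR against SDR the median of 0.04 turned to -0.032 with median centring and to -0.37 with the poly-A controls, which put 77 members below 0 and 2 at least 2-fold lower. The lower count was 1 with the floor at percentile 25, 1 with the mean of all probe sets and 2 at 1.5-fold, where 2 were higher. For homozygous against heterozygous HHR the median was -0.0099 with the hybridisation and -0.0071 with the poly-A controls, and 1 member was higher at 1.5-fold. For SDR involution against SDR lactation the median of -0.48 became -0.58 with median centring, -0.30 with quantile normalization, -0.34 with intensity-dependent centring, -0.80 with the poly-A controls and turned to 0.01 (0.0051) with the hybridisation controls. Relative to all genes it was -0.33 with quantile normalization and -0.35 with intensity-dependent centring. The 13 members at least 2-fold lower became 7 under both of these, 33 with the poly-A controls, 2 with the hybridisation controls and 36 at 1.5-fold. The 1 higher became 0 with the mean of all probe sets, 4 with the hybridisation controls and 2 at 1.5-fold. With the hybridisation controls 8 were at least 1.5-fold lower, 42 below 0, and 33 lowest in involution of the 4 arrays. The cause was not tested. In all, 190 of these summary values stayed, 33 moved and 4 turned, and of the values of named members at least 1.5-fold different as deposited 226 stayed, 152 moved and 0 turned, under all alternatives but intensity-dependent centring. Smaller differences did turn, since with the hybridisation controls 42 subunits lay below 0 in involution, against 65 as deposited. Members near the floor, such as Cox4i2, are limited by their low signal.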

Other observations

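The array holds 7 further probe sets of respiratory chain genes that carry more than 1 symbol, a gene and a near-identical copy or neighbour, and so were left out of the set. In SDR involution 6 of the 7 were lower than in SDR lactation at the deposited scale. The probe set of Atp5mc1, a c ring gene, and Atp5mc1l1 had 4444 in SDR involution, 8737 in homozygous HHR, 10462 in heterozygous HHR and 10545 in SDR lactation, 2.37-fold lower than in SDR lactation. The one of Cox7a2 and Cox7a2l2 was 1.89-fold lower, the one of Atp5mc2 and Atp5mc2l1 1.85-fold, the one of Cox5a and a predicted gene 1.51-fold, the one of Ndufs5 and its pseudogene 1.49-fold and the one of Uqcrb and Uqcrbl1 1.21-fold. The probe set of Ndufa10 and Ndufa10l1 was 1.14-fold higher.

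The second probe set of Uqcrc2 differed from the first in the lactation arrays. It had 1164 in SDR involution, 1352 in homozygous HHR, 1377 in heterozygous HHR and 6677 in SDR lactation. Homozygous and heterozygous HHR were thus 4.94-fold and 4.85-fold lower than SDR lactation by this probe set, against 1.43-fold and 1.33-fold by the brighter one.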
